A study of Mus musculus with 10 samples.

Results

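The 9 genes described here encode the insulin-like growth factors Igf1 and Igf2, the IGF2 receptor Igf2r and the binding proteins Igfbp2, Igfbp3, Igfbp4, Igfbp5, Igfbp6 and Igfbp7. They were taken as every non-control probe of the array that carries 1 of these gene names, which gave 14 of 55681 probes and 9 of 36161 names. Untreated neuroblastomas of 10 mice were compared. In the ALK/MYCN group were 5 tumours of mice heterozygous for an ALK F1174L transgene and a MYCN transgene (ALK+/-, MYCN+/-), with the genetic background C57BL/6 x 129X1/SvJ. In the MYCN group were 5 tumours of mice with the MYCN transgene alone (MYCN+/-), with the genetic background 129X1/SvJ. F1174L is an activating mutation of the receptor tyrosine kinase ALK found in human neuroblastoma. All tumours therefore carried MYCN, and the ALK transgene and the strain background cannot be told apart. The promoters of the transgenes, the ages of the mice and the site of each tumour are not given in the sources used here. Every tumour had an Agilent array of its own, which took its Cy3-labelled RNA together with a Cy5-labelled reference pooled from 11 mouse cell lines. Values are log2 ratios of tumour over that reference, so a value of 1 gene in 1 tumour can be set against other tumours but not against another probe.

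IGF1 and IGF2 are secreted growth factors that act through the IGF1 receptor, a tyrosine kinase that signals to PI3K, AKT and RAS. In extracellular fluid most IGF is held by 6 binding proteins, IGFBP1 to IGFBP6, which lengthen its half-life and can block or aid its access to the receptor, and proteases release it again. IGF2R, also the cation-independent mannose 6-phosphate receptor, takes IGF2 into the cell for breakdown and carries lysosomal enzymes. In developing tissue and in tumours, IGFs and binding proteins are made by stromal and endothelial cells as well as by tumour cells.

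Of the 9 genes, 8 had a probe well above background in the tumour channel on at least 5 of the 10 arrays. Among these 8, Igf1, Igfbp2, Igfbp3 and Igfbp5 were lower in ALK/MYCN than in MYCN tumours by limma's moderated test, with Benjamini-Hochberg adjustment over all 22263 genes and a threshold of 0.05, and none was higher. The median difference of the 8 was -0.94 (log2, ALK/MYCN minus MYCN), beside -0.0036 over all genes tested. Across all genes 26.5% were called, 14.2% higher and 12.2% lower, so 4 of 8 lower calls stand beside a background of 12.2%. The members were chosen with earlier results of these data known, so this contrast is a description and not a test of excess. Of all calls 53.8% were higher, and this share was 76.8% with median centring and 91.1% with centring on spike-in spots; the 4 members stayed lower under both. The groups did not overlap in the same 4 members, beside 19.9% of all genes with a value on every array. At an unadjusted p under 0.05, limma again gave 0 members higher and 4 lower. Among the 13 member probes that were tested singly, 6 were lower, 0 higher and 7 not called, beside 24.9% of all probes called, 13.7% higher and 11.2% lower. The groups did not overlap on the 6 lower probes, beside 18.9% of all probes with a value on every array.

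**Figure D1:**
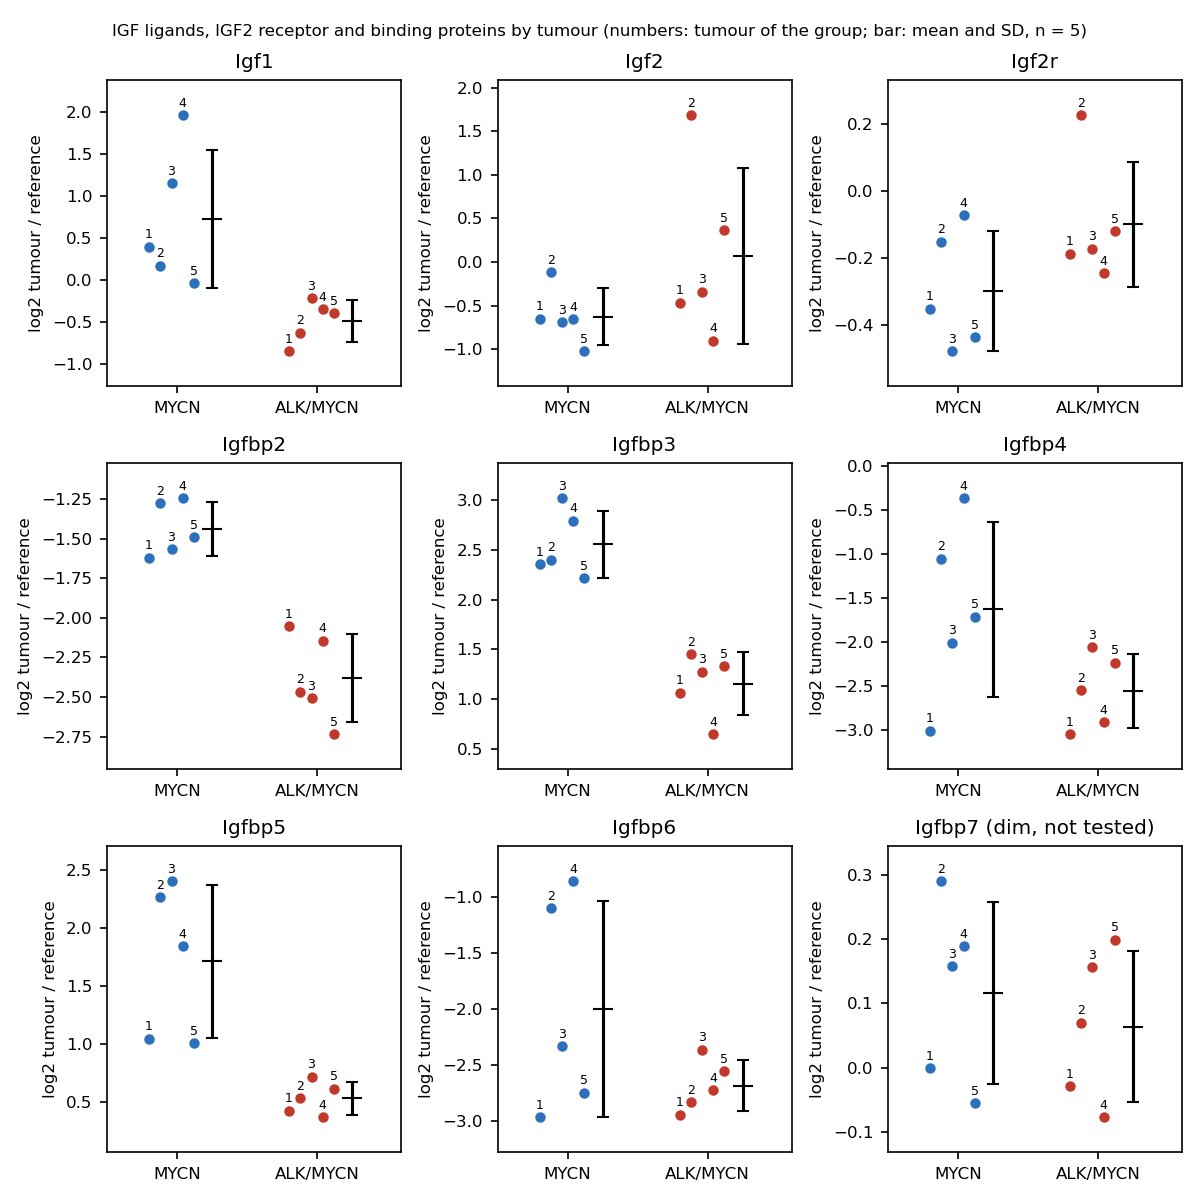
The 9 genes in each tumour, as log2 ratio of tumour over reference RNA on the vertical axis, whose scale differs between panels. Points are tumours numbered within their group, and the bar is the mean with SD (n = 5). The groups are apart in the Igf1, Igfbp2, Igfbp3 and Igfbp5 panels and overlap in the others; MYCN tumours 2 and 4 are the highest of the Igfbp4 and Igfbp6 panels.

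The sequences that carry these results are the array's own 60-base probes, of which the first 30 bases are printed, 5′ to 3′, with positions of the whole probe on build mm9 as the array files give them. They are shown because several members turn on 1 probe, and because the Igf1 probes did not agree. No annotation of that build was used here, so exon or intron is not given. The Igfbp2 probes lie on the plus strand at chr1:72898677-72898736 and chr1:72898813-72898872. The Igfbp5 probe lies on the minus strand at chr1:72904829-72904888, 5956 bases beyond the nearer Igfbp2 probe, since the genes are neighbours. The Igfbp3 probe is at chr11:7106594-7106653, minus strand.
Igfbp2, first probe: catctcttctacaacgagcagcaggagact
Igfbp2, second probe: aggagttcccagttttgacacatgtattta
Igfbp3: gcagttttccaaaaacacagatttcttttc
Igfbp5: cacatcacatattactgtagctctctatag

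Igf1 has 5 probes on the plus strand of chromosome 10. They are listed in order along it, from chr10:87378456-87378515 through chr10:87393561-87393620, chr10:87393581-87393640 and chr10:87395924-87395983 to chr10:87399581-87399640. The first is assigned in the files to transcript NM_184052 and the other 4 to NM_010512. The middle pair share 40 of their 60 bases and so read nearly the same stretch of RNA. The capitals mark the 10 bases that appear in both printed stretches; the overlap runs on beyond them into the unprinted part of the upstream probe.
A_55_P2085979: aaccattaaaaacatgccaccaagaccttc
A_55_P2085984: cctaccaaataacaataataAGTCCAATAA
A_55_P2031631: AGTCCAATAAcattacaaagatgggcattt
A_55_P2031636: agaaatgtaaatggaataagaggtcagctg
A_55_P2085974: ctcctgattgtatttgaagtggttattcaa

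Igf1, the ligand that circulates from the liver and is also made in many tissues, was represented by its brightest probe, A_55_P2031631. The 5 ALK/MYCN tumours had log2 ratios of -0.84, -0.62, -0.21, -0.34 and -0.39, and the 5 MYCN tumours had 0.40, 0.17, 1.16, 1.96 and -0.04. Every MYCN tumour was above every ALK/MYCN tumour, but the lowest, MYCN 5, was close to the highest ALK/MYCN tumour. The MYCN group was also the more spread, with an SD of 0.82 against 0.25 (n = 5 each). The difference was -1.21 ± 0.34 (SE), which is 2.32-fold lower in ALK/MYCN (limma, adjusted p = 0.0275). The call was lost when 1 of the tumours ALK/MYCN 1, 2 or 5 or the tumour MYCN 3 was left out, where limma's adjusted p lay between 0.0538 and 0.0627.

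The 5 Igf1 probes gave different answers. The overlapping pair differed by -1.21 each (limma over all probes, adjusted p = 0.0235 and 0.0275). The first probe along the chromosome, assigned to NM_184052, differed by -0.22 (adjusted p = 0.259, limma), and its ALK/MYCN values all lay between -0.07 and 0.05. The dim probe A_55_P2031636, well above background on 9 arrays, differed by -0.33 (adjusted p = 0.368, limma). The most distal probe, A_55_P2085974, differed by -0.92 ± 0.54 (adjusted p = 0.238, limma). There MYCN 1 and MYCN 5, at -1.13 and -1.08, fell among the ALK/MYCN tumours, whose values ran from -1.86 to -0.25. MYCN 4 was the highest tumour on all 5 probes. With the mean over probes in place of the brightest, Igf1 differed by -0.78 (limma, adjusted p = 0.0863). No probe outside the overlapping pair was called.

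**Figure D2:**
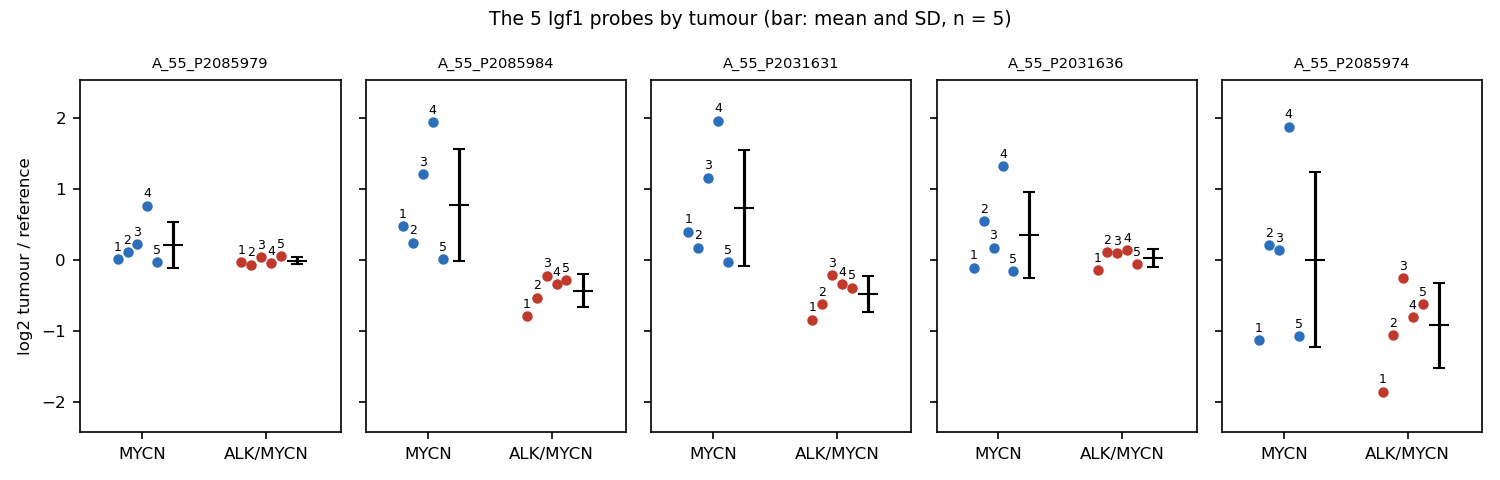
The 5 Igf1 probes in order along chromosome 10, each with the log2 ratio of tumour over reference by tumour (points, numbered within the group) and the mean with SD (n = 5). The groups are apart on A_55_P2085984 and A_55_P2031631 and overlap on the other 3 probes; MYCN 4 is the highest point in every panel.

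Igf2, the growth factor of fetal tissue that is expressed from the paternal allele, is read by 1 probe at chr7:149839661-149839720, minus strand. The ALK/MYCN tumours had -0.47, 1.68, -0.34, -0.90 and 0.36, and the MYCN tumours had -0.65, -0.11, -0.69, -0.66 and -1.02. ALK/MYCN 2 stood above the rest and ALK/MYCN 4 lay next to the lowest, so the ALK/MYCN group spanned nearly the whole range. The difference was 0.69 ± 0.42 and did not pass (limma, adjusted p = 0.254), with a 95% interval from -0.25 to 1.64. Without ALK/MYCN 2 the difference was 0.29 (limma, adjusted p = 0.444). The probe was well above background in 4 ALK/MYCN and 3 MYCN tumours. On the tumour channel alone the difference was 1.41 (limma, adjusted p = 0.261). A level difference in Igf2 was thus not resolved in 5 against 5 tumours. H19, the maternally expressed RNA of the same imprinted locus, followed a similar order only in part. It was highest in ALK/MYCN 2 (2.66), MYCN 2 (2.56) and ALK/MYCN 5 (1.93), lowest in ALK/MYCN 4 (-3.42), and its difference of 0.65 ± 1.15 did not pass (limma, adjusted p = 0.716). Single tumours moved that difference widely, to 0.06 without ALK/MYCN 2 and 1.58 without ALK/MYCN 4.

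Igf2r, the receptor that removes IGF2, was read by 10 spots per array of 1 probe on the minus strand of chromosome 17, whose SD within an array was 0.06 at the median. The ALK/MYCN tumours had -0.19, 0.23, -0.17, -0.24 and -0.12, and the MYCN tumours had -0.35, -0.15, -0.48, -0.07 and -0.44. The values lay within a narrow span and the groups overlapped. The difference was 0.20 ± 0.11 (limma, adjusted p = 0.221; 95% interval from -0.05 to 0.45), and 0.12 without ALK/MYCN 2. Igf2r was called higher with median centring in place of loess (0.33, limma adjusted p = 0.0396) and with centring on spike-in spots (0.45, limma adjusted p = 0.0111), settings that moved the median of all genes by 0.09 and 0.25.

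Among the binding proteins, Igfbp3 and Igfbp2 gave the clearest separation. Igfbp3 is the main carrier of IGF in blood, where it forms a complex with the acid-labile subunit. The ALK/MYCN tumours had 1.07, 1.45, 1.28, 0.65 and 1.33, and the MYCN tumours had 2.36, 2.40, 3.02, 2.80 and 2.22. The lowest MYCN tumour was above the highest ALK/MYCN tumour by more than the SD of either group, 0.34 in MYCN and 0.32 in ALK/MYCN. The difference was -1.41 ± 0.19, which is 2.65-fold lower in ALK/MYCN (limma, adjusted p = 0.00105). On the tumour channel alone it was -2.12 (limma, adjusted p = 0.00268), and over the 25 alternative settings it lay between -2.12 and -1.15 with every one called.

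Igfbp2, a binding protein abundant in fetal tissue and brain, had 2 probes that do not overlap. On the brighter one the ALK/MYCN tumours had -2.05, -2.47, -2.51, -2.14 and -2.73, and the MYCN tumours had -1.62, -1.28, -1.57, -1.24 and -1.49. Every ALK/MYCN tumour was lower than every MYCN tumour, and the MYCN group was the tighter of the 2 groups (SD 0.17 against 0.28). The difference was -0.94 ± 0.14, or 1.92-fold lower in ALK/MYCN (limma, adjusted p = 0.00149). The other probe differed by -0.95 ± 0.13 (limma over all probes, adjusted p = 0.00106), with groups again apart. Igfbp2 was called lower under 24 of 25 alternatives, the exception being a fit without 4 tumours that had high markers of other tissues.

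Igfbp5 is a binding protein held in extracellular matrix. The ALK/MYCN tumours had 0.43, 0.53, 0.72, 0.37 and 0.62, and the MYCN tumours had 1.05, 2.26, 2.40, 1.84 and 1.00. The ALK/MYCN tumours lay close together (SD 0.14), whereas the MYCN tumours fell into a lower pair, MYCN 1 and MYCN 5, and a higher 3 (SD 0.66). The difference was -1.18 ± 0.27, or 2.26-fold lower in ALK/MYCN (limma, adjusted p = 0.0117). Its neighbour Igfbp2 did not show that split within the MYCN group.

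Igfbp4, a binding protein that inhibits IGF action until the protease PAPP-A cleaves it, and Igfbp6, which prefers IGF2, were not called. For Igfbp4 the ALK/MYCN tumours had -3.05, -2.55, -2.06, -2.91 and -2.24, and the MYCN tumours had -3.01, -1.06, -2.01, -0.37 and -1.71. MYCN 1 lay among the lowest ALK/MYCN tumours while MYCN 4 and MYCN 2 were the highest of all. The difference was -0.93 ± 0.43 (limma, adjusted p = 0.140; 95% interval from -1.89 to 0.03), and without MYCN 1 it was -1.27 and was called (limma, adjusted p = 0.0275). Without MYCN 4 it was -0.61 (limma, adjusted p = 0.260). For Igfbp6 the ALK/MYCN tumours had -2.94, -2.83, -2.36, -2.72 and -2.55, and the MYCN tumours had -2.96, -1.10, -2.33, -0.86 and -2.74. Its difference was -0.68 ± 0.40 (limma, adjusted p = 0.229; 95% interval from -1.56 to 0.20), and MYCN 2 and MYCN 4 again stood above the other 8 tumours. Without MYCN 4 the difference was -0.40 (limma, adjusted p = 0.432), and without MYCN 2 it was -0.46 (limma, adjusted p = 0.418).

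Igfbp7, a secreted protein of blood vessels with weak affinity for IGF, was not tested. Its 1 probe was well above background in 1 ALK/MYCN and 2 MYCN tumours and on 0 arrays in the reference. The values ran from -0.08 to 0.20 in ALK/MYCN and from -0.06 to 0.29 in MYCN tumours. With both channels dim, such ratios near 0 give no order of the groups.

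The tumours differed in markers of other cell types, and these moved with the comparison. RNA came from whole tumours, where fewer cells of a type and less RNA per cell cannot be told apart. Macrophage markers were lower in 6 of 9 genes, endothelial markers in 8 of 11 and pericyte markers in 4 of 7, whereas 0 of 9 fibroblast markers passed (limma, adjusted p from 0.0915 to 0.956; 1 was lower at an unadjusted p under 0.05), with a median difference of -1.31. All 11 neuroblastoma markers were well above background in every tumour. A stromal score was taken as the centred mean over 29 markers, those of macrophages, endothelium and fibroblasts, and it was -0.97, -0.54, 0.03, -0.57 and -0.20 in ALK/MYCN tumours and -0.67, 0.83, 0.83, 1.36 and -0.10 in MYCN tumours. Thus MYCN 1 had a score as low as the ALK/MYCN tumours, and MYCN 5 lay between ALK/MYCN 5 and ALK/MYCN 3. Markers of skeletal muscle were high in MYCN 2 (5.08) and MYCN 1 (2.27), those of adrenal cortex in ALK/MYCN 3 (4.12), and those of adipocytes in MYCN 4 (3.89) and ALK/MYCN 3 (2.50), each as the centred mean of its list. Without ALK/MYCN 3 and the MYCN tumours 1, 2 and 4 together, which left 4 against 2 tumours and was chosen after seeing the data, Igfbp3 alone was called lower (-1.49, limma adjusted p = 0.0328). Igfbp2, Igfbp5 and Igf1 then differed by -0.82, -1.22 and -1.11 (limma, adjusted p = 0.0551, 0.0787 and 0.0821). Without ALK/MYCN 3, MYCN 2 and MYCN 5 together, all 4 were called. That removal kept MYCN 1 and MYCN 4, which had high markers. It took out MYCN 5, with -0.16 for skeletal muscle, -0.57 for adrenal cortex and 0.89 for adipocytes, below the high tumours named above. It is therefore not a removal of the tumours with the highest markers of other tissues.

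Set beside that score, the members divided. In MYCN 1, Igfbp3 (2.36), Igfbp2 (-1.62), Igfbp5 (1.05) and Igf1 (0.40) were above every ALK/MYCN tumour. There Igfbp4 (-3.01) and Igfbp6 (-2.96) were at the level of the ALK/MYCN tumours. The lists behind the low score of MYCN 1 were not equally low. Its fibroblast mean was the lowest of all tumours (-1.80). Its macrophage mean was -0.34, the lowest of the MYCN tumours, with ALK/MYCN tumours at -0.72 to -0.14. Its endothelial mean was -0.02, with ALK/MYCN tumours at -0.79 to 0.08. Its pericyte mean, not part of the score, was -0.14, with ALK/MYCN tumours at -0.99 to -0.10. Both means were the lowest of the MYCN tumours and lay within the ALK/MYCN range, near its upper end. The part of vessel cells in the values of MYCN 1 was not tested. With the score as a covariate in limma, the difference was -1.15 for Igfbp3 (adjusted p = 0.00820) and -0.92 for Igfbp2 (adjusted p = 0.0109), both still called. It was -0.65 for Igfbp5 (limma, adjusted p = 0.0790) and -0.61 for Igf1 (limma, adjusted p = 0.229), neither of them called. For Igfbp4 it was 0.02 and for Igfbp6 0.17, with the sign turned (limma, adjusted p = 0.971 and 0.708). Igf2 and Igf2r moved little, to 0.83 and 0.29. The score itself differed between the groups, so the covariate takes up part of the group difference, and the part of other cell types in the Igf1 and Igfbp5 results was not tested beyond this.

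**Figure D3:**
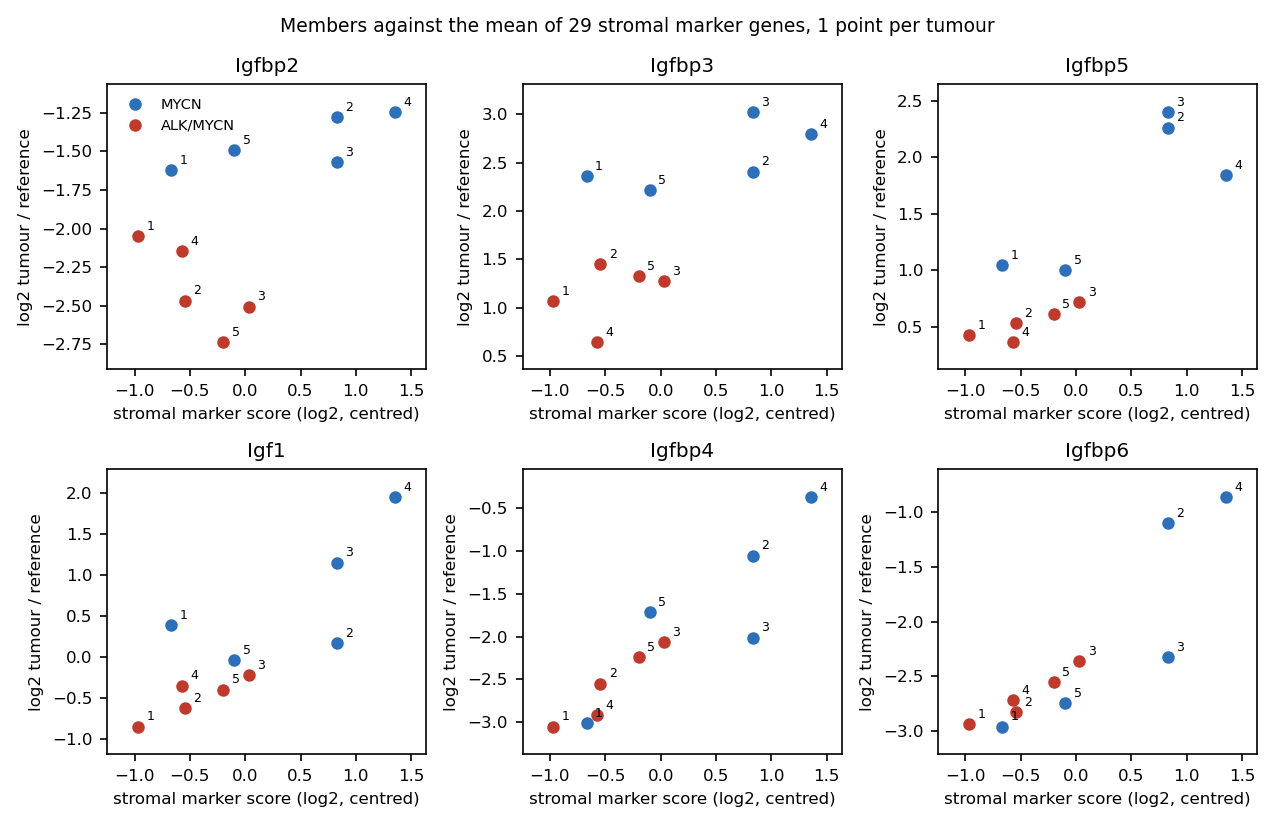
Log2 ratio of tumour over reference for 6 members (vertical axis, own scale per panel) against the stromal score of each tumour (horizontal axis, log2, centred), with 1 point per tumour numbered within its group. MYCN 1, with a score of -0.67, is above every ALK/MYCN point for Igfbp2, Igfbp3, Igfbp5 and Igf1 and lies with the ALK/MYCN points for Igfbp4 and Igfbp6. Its mean was -1.80 for the fibroblast, -0.34 for the macrophage and -0.02 for the endothelial markers.

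**Figure D4:**
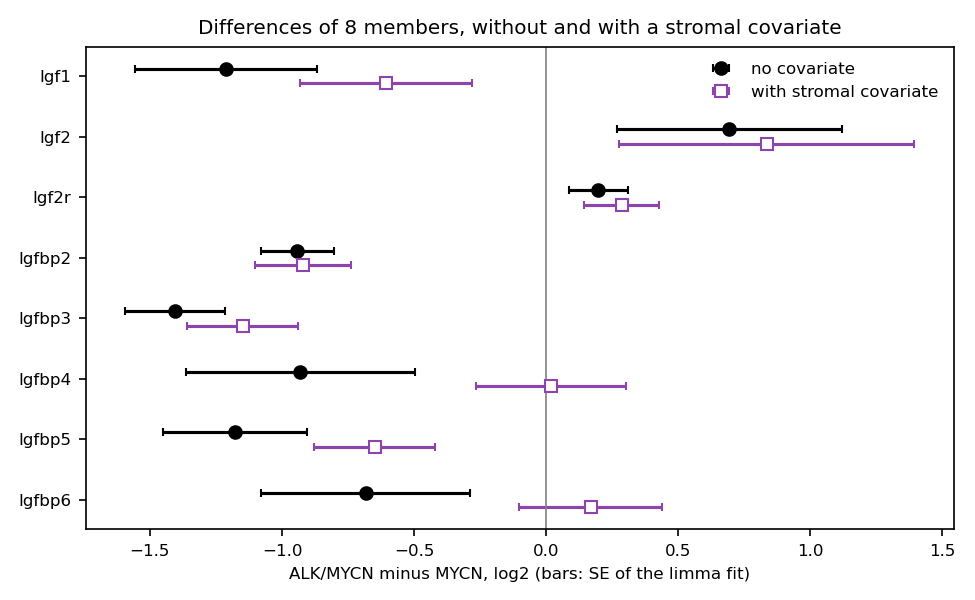
Difference of ALK/MYCN minus MYCN (log2) for the 8 measured members, with the SE of the limma fit as bars, without the covariate (filled circles) and with the stromal score as covariate (open squares). With the covariate Igfbp2 goes from -0.94 to -0.92 and Igfbp3 from -1.41 to -1.15, while Igfbp4 and Igfbp6 move to 0.02 and 0.17.

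Arrays lay on 3 slides, which held 1 ALK/MYCN and 1 MYCN tumour, 3 and 1, and 1 and 3. Within these slides Igfbp3 differed by -0.91, -1.80 and -1.22, Igfbp2 by -0.85, -0.99 and -1.29, and Igfbp5 by -0.51, -1.34 and -1.27. Igf1 differed by -1.02, -2.42 and -0.82. The 4 lower members were therefore lower within each slide, and with slide as a block they were all called, at -1.36, -1.07, -1.11 and -1.47 in that order (limma, adjusted p from 0.00255 to 0.0403). Igfbp4 differed by 0.46, -2.31 and -0.64 within slides and Igfbp6 by 0.13, -1.81 and -0.50, so neither kept its direction. Igf2 differed by 2.33, 0.09 and 0.97, and Igf2r by 0.58, -0.13 and 0.24.

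Within groups, the members did not vary as 1 block. After each group's mean was removed, the highest Pearson correlation between members over the 10 tumours was 0.89, for Igfbp4 with Igfbp6, followed by 0.80 for Igf2 with Igf2r, while Igfbp2 with Igfbp3 gave -0.39. These are descriptions over tumours that share their cell makeup. The genes whose group-centred pattern was most like that of a member, out of 12518 named genes, were C1rb (r = 0.99) and Abi3bp (0.98) for Igfbp6, Socs3 (0.98) and Inhba (0.97) for Igfbp5, and Lpin1 (0.97) and Hsdl2 (0.96) for Igfbp4. For Igfbp3 they were Plxnd1 (0.96) and Gusb (0.95), for Igfbp2 Elane (0.93) and Prf1 (0.92), and for Igf1 Calhm2 (0.96) and Clec2i (0.95, and 0.82 without the 2 tumours farthest from the median). For Igf2 they were Thap7 (0.97) and Angel1 (0.97, and 0.87 without them), and for Igf2r Gtpbp10 (0.93, and 0.77 without them) and Cdk9 (0.92, and 0.68 without them). Without the 2 tumours farthest from the median, r was 0.88 for Lpin1, Thap7 and Prf1, 0.89 for Elane and 0.90 for Hsdl2. For the remaining genes not marked above it was 0.91 to 0.96. Each of these genes was picked as the highest of many, over 10 tumours.

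The rest of the IGF pathway was followed through 61 further genes, of which 56 were measured. Of these, 11 were higher (19.6%, beside 14.2% of all genes), 4 lower (7.14%, beside 12.2%) and 41 not called (limma, adjusted p of 0.05), and the median difference was 0.01. The 11 include Igf2bp3, described below, for which the ALK/MYCN arrays alone met the filter. The share called, 26.8%, is near the 26.5% of all genes, and with centring on spike-in spots 21 were higher and 2 lower. Igf1r, the receptor of both ligands, was read by 1 probe and had the largest change among the 4 receptors. Its log2 ratios were -0.59, -0.96, -0.28, -0.19 and -0.74 in ALK/MYCN and -3.17, -2.30, -1.97, -2.24 and -1.83 in MYCN tumours, with no overlap. The difference was 1.75 ± 0.25 (limma, adjusted p = 0.00126), it was 1.30 to 2.21 within slides, and it was 2.03 with the stromal score as covariate. Igf1r thus moved opposite to Igf1, Igfbp2, Igfbp3 and Igfbp5. Insr, the insulin receptor, differed by 0.16 ± 0.07 (limma, adjusted p = 0.112) and was called under 4 of 25 alternatives.

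Of 12 receptor adaptors, 0 were lower by limma, and again 0 at an unadjusted p under 0.05. By limma 5 were higher (41.7%, beside 14.2% of all genes), in a small list chosen with earlier results of these data known. They were Irs2 (1.06 ± 0.16, limma adjusted p = 0.00156) and Irs1 (0.90 ± 0.28, limma adjusted p = 0.0411), which couple the receptor to PI3K, together with Shc1 (1.04 ± 0.22), Grb2 (0.38 ± 0.10) and Grb14 (0.79 ± 0.09). Irs1 was called by 1 of its 2 probes and was not called under 15 of 25 alternatives. In the PI3K and AKT list, 2 of 11 were higher (18.2%, near the 14.2% of all genes). These were the PI3K regulatory subunit Pik3r1 (0.55 ± 0.16) and the kinase Akt1 (0.19 ± 0.06), which lost their calls under 10 and 17 of 25 alternatives. Among 8 measured IGFBP proteases and their inhibitors, Htra1, a secreted serine protease that cleaves Igfbp5, was lower (-1.57 ± 0.40, limma adjusted p = 0.0186) and Stc1, an inhibitor of PAPP-A, was higher (0.66 ± 0.17, limma adjusted p = 0.0173). These shares, 12.5% in each direction, are near the 14.2% higher and 12.2% lower of all genes. With the stromal score as covariate Htra1 differed by -0.76 and was not called (limma, adjusted p = 0.137). Stc1, whose probe was well above background in 4 ALK/MYCN and 3 MYCN tumours, lost its call with slide as a block (limma, adjusted p = 0.0569), with the stromal covariate (0.53, limma adjusted p = 0.112), on the tumour channel alone (1.41, limma adjusted p = 0.114) and in both fits without several tumours, and its difference was 2.50 with the scanner's processed signals.

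In the list of the Igf2 locus and imprinted growth genes, 2 of 6 were higher (33.3%, beside 14.2% of all genes). That count includes Igf2bp3, for which the ALK/MYCN arrays alone met the filter, so the share is not read as a result. Igf2bp3, an RNA-binding protein that binds Igf2 mRNA, was called higher (limma, adjusted p = 0.00177), but its probe was well above background in all 5 ALK/MYCN and in only 2 of the 5 MYCN tumours. It thus passed the filter mainly through the ALK/MYCN group, and the size of the difference, 2.75 in the ratios and 4.82 on the tumour channel alone, is not a measured fold. Plagl1, an imprinted zinc finger factor, rose by 1.88 ± 0.32 (limma, adjusted p = 0.00304), but its 4 probes gave 1.88, 1.82, 0.46 and 0.24, and the last was not called; with the mean over probes it differed by 1.20. Of 6 genes of mannose 6-phosphate sorting, the route on which Igf2r carries lysosomal enzymes, the cathepsins Ctsb (-0.81 ± 0.21) and Ctsd (-0.60 ± 0.16) were lower. That is 33.3%, beside 12.2% of all genes. Ctsd lost its call under 6 of 25 alternatives, among them slide as a block (limma, adjusted p = 0.0507), spike-in centring (-0.35, limma adjusted p = 0.0860) and the fits without ALK/MYCN 1 or without MYCN 4 (limma, adjusted p = 0.0521 and 0.0516). Among the 5 measured CCN genes, whose proteins share a domain with the binding proteins, Ctgf was lower (-1.12 ± 0.36, limma adjusted p = 0.0447) and lost that call under 17 of 25 alternatives. This share of 20% stands beside 12.2% of all genes. With the stromal score as covariate in limma 0 of the 4 lower pathway genes stayed called, and 2 had an unadjusted p under 0.05. Igfbp1, the liver carrier beside Igfbp3 on chromosome 11, differed by 0.03 ± 0.29 (limma, adjusted p = 0.952).

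**Figure D5:**
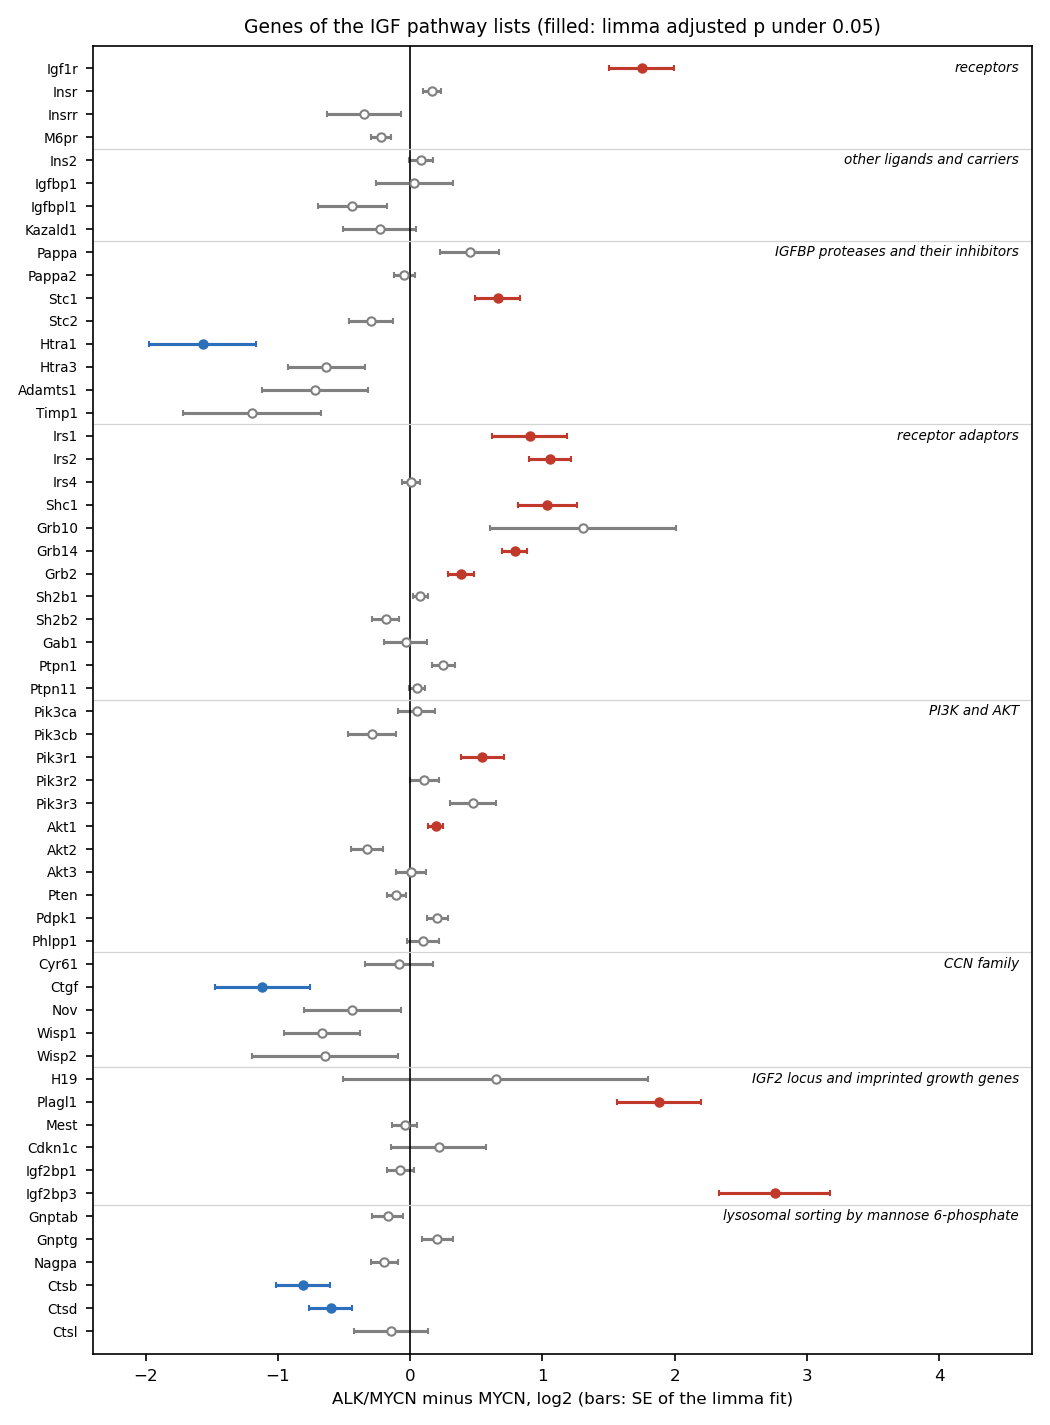
Difference of ALK/MYCN minus MYCN (log2, horizontal axis) for the 56 measured genes of the IGF pathway lists, grouped by list, with the SE of the limma fit as bars. Filled points passed the limma test and open points did not. Igf1r lies at 1.75 to the right and Htra1 at -1.57 to the left; the point farthest right, Igf2bp3, was well above background in only 2 of 5 MYCN tumours, so its size is not a measured fold.

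The 4 lower members were also compared by the 250 bases before their start sites, in RefSeq sequence of GRCm38.p6. The windows were searched on both strands for the E-box CACGTG, which MYC proteins bind, the GC box GGGCGG, the TATA box TATAAA and the FOXO site GTAAACA. Of 32851 mouse windows of this length, 6.02% hold the E-box, 32.7% the GC box, 12.4% the TATA box and 3.17% the FOXO site. None of the 4 motifs was found for Igf1, Igfbp3 or Igfbp5. The first Igfbp2 window holds 1 E-box and 3 GC boxes, and the window of Igf2r, which was not called, holds 2 E-boxes and 3 GC boxes. The second Igfbp2 window holds none of the motifs. The 4 lower members thus share none of these motifs, but at the shares given above any 4 genes would seldom share 1, so this tells little. The windows of Igfbp2 and Igfbp3, the pair that stayed called with the covariate, are printed with matches in capitals. They lie at chr1:72824230-72824479, plus strand, and chr11:7213924-7214173, minus strand.
Igfbp2: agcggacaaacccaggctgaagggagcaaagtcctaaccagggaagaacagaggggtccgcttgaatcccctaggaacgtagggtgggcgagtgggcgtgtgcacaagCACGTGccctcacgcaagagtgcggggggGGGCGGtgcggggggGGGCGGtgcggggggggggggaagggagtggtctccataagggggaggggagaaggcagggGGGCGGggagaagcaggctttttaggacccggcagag
Igfbp3: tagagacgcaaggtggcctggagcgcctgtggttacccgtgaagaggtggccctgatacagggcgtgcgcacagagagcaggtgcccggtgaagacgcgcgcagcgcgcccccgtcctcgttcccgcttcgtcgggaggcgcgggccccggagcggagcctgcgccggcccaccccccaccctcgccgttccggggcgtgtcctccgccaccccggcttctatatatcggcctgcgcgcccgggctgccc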

How the data were processed

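Per the file headers, the deposited intensities come from Agilent Feature Extraction 10.7.3.1, and probe positions are on mm9. The scanner's deposited log10 ratios of Cy5 over Cy3, per the file headers, were not tested. On probes with 1 spot per array, the deposited value table held log2 ratios that matched the scanner's processed Cy3 over Cy5 signal within 5.01e-04 on every array. Its scale, centring and direction were read from these probes. Probes with more spots, such as those of Igf1 and Igf2r, were left out of that check. The column medians of the deposited table were -0.186 to -0.035. Here, mean signals were corrected for local background with normexp (offset 50), normalised by loess within arrays with control spots at weight 0, and turned to tumour over reference. Outlier spots, 177 to 345 per array, became missing values, and saturation marked no spot. Replicate spots were averaged per probe. A probe had to be well above background in the tumour channel on 5 or more of 10 arrays, which 30857 were, and each gene was represented by its brightest probe. Of the non-control spots, 53.8% to 58.7% were well above background per array, and arrays correlated at 0.867 to 0.972 within groups. Precision is limited by there being 10 arrays.

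The comparison used limma (version 3.58.1, R version 4.3.3; lmFit and eBayes, two-sided) and was also tested on simulated data. Dyes were not swapped. The rule named all 9 members with every probe, pathway genes that passed plus Igf1r, Insr, Igfbp1 and H19, and the 2 genes most like each member. Members, lists and alternatives were chosen with earlier results of these data known. Same-numbered tumours correlated at -0.09 to 0.34 after group means were removed, so numbers were not taken as pairs. Slides, read from the files, were taken as batches. Alternatives varied the background correction, normalisation, filter, probe summary, blocks, a stromal covariate and the tumours included; 1 removal of 4 tumours was chosen after seeing the data.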

Additional observations from a re-analysis of the deposited data

Results flagged for a closer look

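In groups of 5 tumours, 5 of the 52 groups examined had 1 tumour apart from the other 4 by Dixon's criterion at 95%, which chance gives in about 1 of 20 groups. Igf2r was 0.225 in ALK/MYCN 2, above the other ALK/MYCN tumours at -0.24 to -0.12; the same tumour was the highest for Igf2. The adaptor gene Shc1 was 0.253 in ALK/MYCN 4, above -0.78 to -0.53 in the others, and -2.14 in MYCN 1, below -1.52 to -1.27 in the others. Ctgf was -1.10 in ALK/MYCN 3, above -2.85 to -2.51 in the others, and that tumour also had the high adrenal cortex and adipocyte markers. H19 was 2.56 in MYCN 2, above -1.49 to -0.41 in the others, and that tumour had the highest skeletal muscle markers. The part of other tissues in these values was not tested.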

How the results depend on the processing

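Igfbp3 kept direction and call under all 25 alternatives. Without ALK/MYCN 3, MYCN 1, MYCN 2 and MYCN 4 together, an alternative chosen after seeing the data that left 6 tumours, 1 member and 1 member probe (Igfbp3) were lower, 6 pathway genes higher and 1994 genes called. Igfbp2 lost its call there alone, Igfbp5 there and with the stromal covariate, and Igf1 in both, with the mean over probes and when any 1 of 4 tumours was left out. Left-out tumours gave 3 to 5 members and 4 to 7 member probes lower, 0 higher, 8 to 11 pathway genes higher and 2 to 6 lower; the 2 pathway genes lower came without ALK/MYCN 1 or MYCN 4. With the stromal covariate 2 members, 3 member probes and 0 pathway genes were lower and 3911 genes called. Median centring and spike-in centring each called 1 member and 1 member probe higher (Igf2r). Spike-in centring, which moved the median of all genes by 0.25, called 21 pathway genes higher and 2 lower and 9458 genes, of which 91.1% were higher, against 76.8% with median centring and 53.8% of 5892 in the report. Without ALK/MYCN 3, MYCN 2 and MYCN 5 together, 7 pathway genes were higher and 3685 genes called. Signs turned for Igfbp4 (0.019) and Igfbp6 (0.17) with the covariate, and for Igfbp1 with scaling between arrays (-0.031), with the covariate (-0.27), without the 4 tumours (-0.37) and with single tumours left out (-0.11 to 0.33). The cause was not tested. With the replicate number as a block, all 4 members stayed lower (limma, adjusted p from 0.0104 to 0.0286) and 4616 genes were called; it changed no call of a member. Igf2 and Igfbp7 are limited by signal over background.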
